A study of Mus musculus with 4 samples.

Results

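Somatostatin (SST) interneurons were sorted from the brain of control mouse embryos and of embryos with floxed *Dnmt1*, the gene of the maintenance DNA methyltransferase. A set of 10 Wnt pathway genes was followed in these cells, the ligands *Wnt5a*, *Wnt7a* and *Wnt7b* and the Frizzled receptors *Fzd1*, *Fzd2*, *Fzd3*, *Fzd5*, *Fzd7*, *Fzd8* and *Fzd9*. They were taken by gene symbol from the expression table, 10 of 56883 genes, and all 10 had reads in every library. At E14.5, basal telencephalons of 2 groups of embryos were dissociated and sorted for tdTomato. Control embryos carried *Sst-Cre* and a Cre-dependent tdTomato reporter, and *Dnmt1* KO embryos carried *Sst-Cre*, tdTomato and *Dnmt1* loxP2, so that both groups shared the driver and the reporter and differed in the floxed *Dnmt1* alleles. Total RNA was sequenced from 2 libraries a genotype, each made from cells of several pooled embryos (50000 cells per genotype by the labels), in mice on a C57BL/6J background whose sex was not distinguished. The first and second KO libraries of the labels are headed KO2 and KO3 in the study's supplementary data, and any further KO library was not analysed here. Because the Cre is driven by *Sst*, deletion follows the onset of *Sst* expression, and any tdTomato-positive event in the sorting gate entered the pool.

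Wnt proteins are secreted, lipid-modified ligands that bind the cysteine-rich domain of Frizzled receptors on the cell surface. With LRP5 or LRP6 as co-receptor, binding stabilises β-catenin, which then acts with TCF/LEF factors on transcription, and without these co-receptors Frizzleds can signal through Dishevelled to the cytoskeleton in the planar cell polarity pathway. In the forebrain, Wnt signals are known for patterning, for expanding progenitors, for guiding axons and migrating neurons and, in the case of WNT7A and WNT7B, for instructing the growth of brain vessels.

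The upstream DNA of 3 of the genes is shown first, because DNMT1 maintains methylation at CpG dinucleotides and the genes differed in how many they carry near their start. Each run is printed 5′ to 3′ on the gene's own strand with CpG dinucleotides in capitals, and is the part of the 250 bases before the RefSeq start (RefSeq table of GRCm38.p6) that also lies upstream of the gene in the GENCODE annotation. Each was matched once in GRCm39, the build of the deposited data. *Wnt7a* and *Fzd5* are shown as the called ligand and the receptor with the largest called change among the 10 genes, and *Fzd1* as a receptor whose change was not called.
*Wnt7a*, chr6:91388461-91388585, minus strand: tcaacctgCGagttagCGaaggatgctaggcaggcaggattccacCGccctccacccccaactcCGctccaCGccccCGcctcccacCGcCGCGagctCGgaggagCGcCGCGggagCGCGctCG
*Fzd5*, chr1:64776935-64777159, minus strand: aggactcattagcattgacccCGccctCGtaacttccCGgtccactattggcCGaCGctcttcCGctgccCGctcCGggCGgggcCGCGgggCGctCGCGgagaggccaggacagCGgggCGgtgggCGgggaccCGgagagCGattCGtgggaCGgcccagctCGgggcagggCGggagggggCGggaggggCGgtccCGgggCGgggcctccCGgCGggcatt
*Fzd1*, chr5:4808217-4808466, minus strand: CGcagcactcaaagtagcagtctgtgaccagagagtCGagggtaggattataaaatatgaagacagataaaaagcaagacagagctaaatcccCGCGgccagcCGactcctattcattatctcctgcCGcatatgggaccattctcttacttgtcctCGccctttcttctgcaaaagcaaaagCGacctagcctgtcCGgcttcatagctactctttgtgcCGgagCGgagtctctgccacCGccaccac
Over the full 250 bases before the RefSeq start, *Wnt7a* held 34 CpG dinucleotides, *Fzd5* held 32 and *Fzd1* held 12. The part upstream of the GENCODE gene held 16 in 125 bases for *Wnt7a*, 29 in 225 for *Fzd5* and 12 in 250 for *Fzd1*. For *Wnt7a* and *Fzd5* the rest of the window lies inside the gene. Among 32851 promoters of the same length the median was 6, with quartiles of 2 and 16, so that 96.5% of promoters held fewer than *Wnt7a*, 95.4% fewer than *Fzd5* and 66.5% fewer than *Fzd1*. The table held 5 of the 10 genes, and the called *Fzd3* and *Fzd8* were not in it. It also gave *Fzd9* with 42 CpG dinucleotides and *Fzd7* with 17, and neither of these genes was called. Upstream of the GENCODE gene, *Fzd9* held 9 of them in 67 bases and *Fzd7* 15 in 213. A TCF/LEF motif, searched on both strands as CTTTG followed by A or T and once more by A or T, was found once in the 250 bases of *Fzd7* and in none of the other 4, against 14.8% of all promoters with at least 1. These counts describe sequence, and DNA methylation was not analysed here. Whether the number of CpG dinucleotides goes with a change in level was not tested.

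The 4 libraries held 6970247 to 8376711 reads assigned to genes, and mitochondrial genes took 5.87% to 7.03% of them. Values are normalized counts, that is, reads divided by a size factor for each library. The libraries of a genotype differed by more than sampling noise (chi-square per degree of freedom of 2.71 between the controls and 2.31 between the KO libraries), and by less than libraries of different genotypes did (9.35 to 9.64). Nothing in the labels ties a library to an embryo, so that the replicates are 2 pools a genotype. Limma's p-values join the spread between these pools with a variance borrowed from other genes of like mean expression. A mean normalized count of 10 or more was reached by 14323 genes, of which limma called 2476 at a Benjamini-Hochberg adjusted p below 0.05, 1189 higher and 1287 lower in KO. The median log2 fold change was -0.0033. *Dnmt1* itself, counted over the whole gene, was at 2238 and 2341 in control and 2164 and 2210 in KO libraries (log2 fold change -0.07, SE 0.05, limma's adjusted p = 0.461). These counts do not separate the floxed exons from the rest of the transcript, so that the level does not check the deletion.

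Interneuron markers were measured in the sorted cells, and so were markers of other cell classes. None of the 4 libraries was of unsorted cells, so that enrichment by the sort was not measured. *Sst* was at 5580 and 5963 in control and 8303 and 7825 in KO libraries, and the summed level of 12 interneuron markers went from 21632 and 21991 in controls to 33632 and 33697 in KO libraries, a ratio of 1.54, with 11 of 12 called higher. The summed level of 13 radial glia and progenitor markers went from 15963 and 15914 to 10105 and 10305 (ratio 0.640), with 9 called lower, 3 not called and 1, *Sox2*, higher. Pallial excitatory markers fell in 8 of 10 genes (sums of 3243 and 3260 in control, 1737 and 1590 in KO libraries, ratio 0.512). Blood markers fell in all 8 of 10 that could be tested (2610 and 2433 against 587 and 592, ratio 0.234), as did 10 of 11 tested of 14 vascular, meningeal and microglial markers (755 and 827 against 334 and 382, ratio 0.453). No marker in these lists was at 0 in all 4 libraries. In sorted bulk RNA, fewer cells of a type and less RNA of a gene per cell cannot be told apart, and this holds for every difference given here.

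Among the 10 Wnt and Frizzled genes, 2 rose and 2 fell in the KO libraries. *Wnt7a* and *Fzd3* rose, *Fzd5* and *Fzd8* fell, and the other 6 did not pass the test. The 4 calls among 10 stand beside 17.3% of all genes tested (8.30% higher and 8.99% lower). In 9 of the 10 genes the genotypes did not overlap (2 higher and 7 lower in KO), beside 57.4% of all genes, and the exception was *Wnt5a*. The 10 were chosen with earlier results of these data known, so that both comparisons with all genes are descriptions. The median log2 fold change of the 10 was -0.29 beside -0.0033 over all genes. All 10 passed the filter on low values, but *Fzd9* did so only through its controls. Its means were 22.2 in control and 8.70 in KO libraries, so that its lower level is partly tied to the filter. The test leans on a prior variance that follows mean expression. Without that trend none of the 10 and none of the 14323 genes was called by limma (5 of the 10 and 3339 of all genes had an unadjusted p below 0.05), while edgeR on the recovered reads called 4 of the 10 and DESeq2 called 2 of the 9 to which it gave an adjusted p (all but *Fzd9*).

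**Figure D1:**
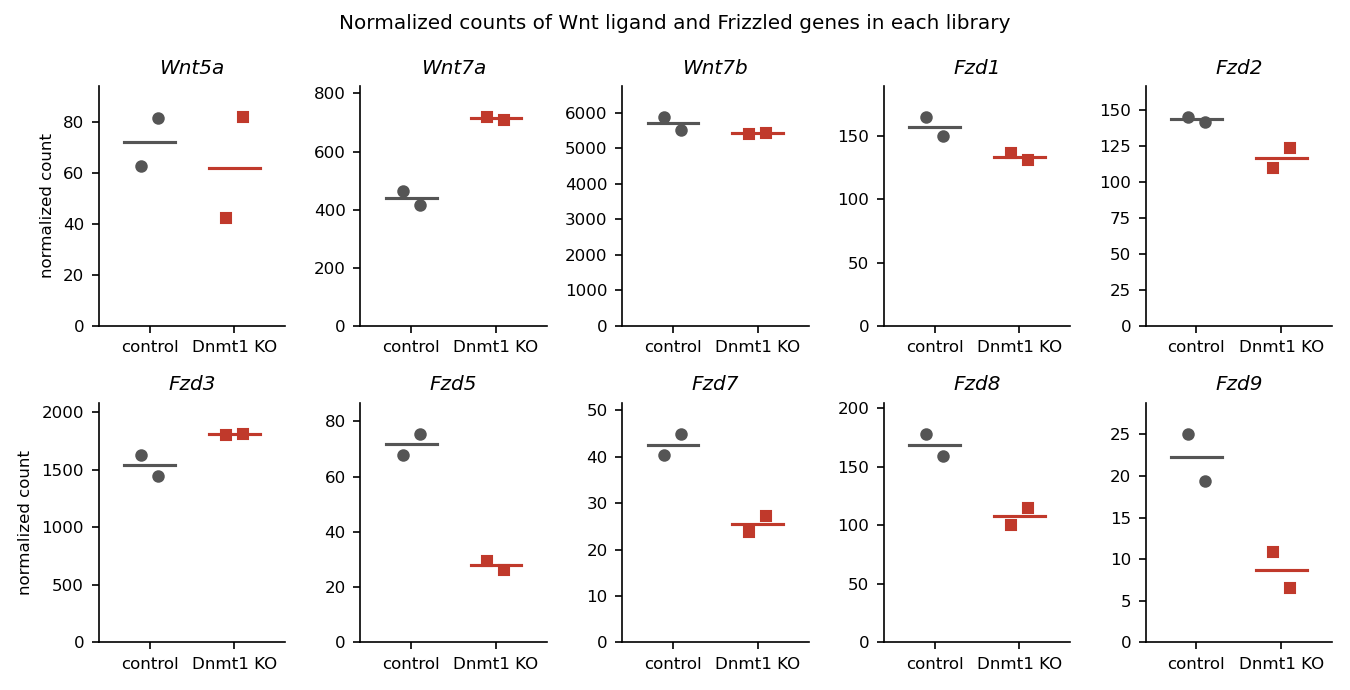
Normalized count (vertical axes, each from 0) of the 10 genes in each library, with circles for the 2 control and squares for the 2 *Dnmt1* KO libraries and a bar at each genotype's mean. The KO libraries of *Wnt7a* lie at 718 and 710.2 above controls of 464 and 418, those of *Fzd5* at 29.6 and 26.2 below controls of 68.0 and 75.5, and the genotypes overlap in *Wnt5a* alone.

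Of the ligands, *Wnt7b* was by far the most abundant and *Wnt7a* was the one that changed. *Wnt7a* (ENSMUSG00000030093.8, chr6:91340959-91388460 in GRCm39, minus strand, 4 exons) encodes a ligand known in the nervous system for synapse assembly and, together with WNT7B, for vessel growth. Control libraries held 464 and 418 normalized counts and KO libraries 718 and 710.2. Both KO libraries lay above both controls, and they lay closer to each other than the controls did. The means were 441 ± 33.2 (SD, n = 2) and 714 ± 5.58 (SD, n = 2), a log2 fold change of 0.70 with a 95% interval of 0.51 to 0.88 (SE 0.09, limma's adjusted p = 5.23e-05), which is a 1.62-fold higher level. The call held in 14 of the 15 alternatives tried, and was lost without the variance trend (adjusted p = 0.0724). The direction is that of the summed interneuron markers (ratio 1.54), and the share of those markers in this change was not tested.

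*Wnt7b* (ENSMUSG00000022382.16, chr15:85419638-85466674, minus strand, 4 exons), the close paralogue of *Wnt7a*, was at 5869 and 5522 in control and 5413 and 5417 in KO libraries. The KO libraries lay just below the controls without overlap. The log2 fold change was -0.07 with a 95% interval of -0.17 to 0.02 (limma's adjusted p = 0.311), so that a change of *Wnt7b* as large as that of *Wnt7a* lies outside its interval. The ratio of *Wnt7b* to *Wnt7a*, taken per kilobase of exon, was 8.11 and 8.49 in the control and 4.84 and 4.89 in the KO libraries. *Wnt7a* thus took 10.5% ± 0.28 (SD, n = 2) of all Wnt ligand signal per kilobase in controls and 16.7% ± 0.18 (SD, n = 2) in KO cells, while *Wnt7b* went from 86.7% ± 0.45 to 81.4% ± 0.19 (SD, n = 2 each). Ratio and shares depend on the length taken. Per kilobase of the transcript with the longest coding sequence, the control mean of *Wnt7b* was 1629 in place of 1110, and that of *Wnt7a* stayed at 134. Shares of one total are tied to each other, and an exact permutation test of 2 against 2 libraries cannot go below p = 0.333, so they are given without a test.

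*Wnt5a* (ENSMUSG00000021994.16, chr14:28226495-28249405, plus strand, 5 exons) encodes the ligand best known for β-catenin-independent signalling through ROR and RYK receptors. It was at 62.6 and 81.7 in control and 42.4 and 81.9 in KO libraries. The higher KO library sat at the level of the higher control, and the lower one below both. The log2 fold change was -0.27 (95% interval -0.87 to 0.33, limma's adjusted p = 0.567), and its sign turned to 0.19 without the first KO library. The KO libraries of *Wnt5a* differed from each other by more than the means of the genotypes did.

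The remaining 16 Wnt ligand genes were low in these cells, with summed normalized counts of 116 and 91.9 in control and 62.1 and 66.6 in KO libraries. A read was seen for 14 of them, 3 reached the mean of 10 needed for testing and none of the 3 was called. *Wnt3*, singled out after its values were seen as the most abundant of the 3, was at 49.2 and 29.6 in control and 17.8 and 26.2 in KO libraries (log2 fold change -0.79, limma's adjusted p = 0.147). *Wnt3* and the others tested, *Wnt5b* and *Wnt8b*, each had both KO libraries below both controls. *Wnt8b* reached the mean of 10 only through its controls (means of 19.7 in control and 8.76 in KO libraries).

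Frizzled genes fall into subfamilies by protein similarity, and the values are given in that order. *Fzd3* and *Fzd6* form the pair known for axon guidance and planar cell polarity. *Fzd3* (ENSMUSG00000007989.8, chr14:65429573-65499933, minus strand, 7 exons) was the most abundant Frizzled, at 1626 and 1448 in control and 1802 and 1812 in KO libraries. Both KO libraries lay above both controls, and the controls lay further from each other than the KO libraries did. The means were 1537 ± 126 and 1807 ± 6.67 (SD, n = 2 each). The log2 fold change was 0.24 with a 95% interval of 0.10 to 0.37 (SE 0.06, limma's adjusted p = 0.0202). The call was lost in 5 of 15 alternatives, among them without the second control library (log2 fold change 0.15, adjusted p = 0.174) and with trends over length and GC content taken out of each library, which left a log2 fold change of 0.0076 (adjusted p = 0.954). With 13225 bases of exon, *Fzd3* was the longest of the 10 genes. Its partner *Fzd6*, which is outside the 10 genes and was singled out after its values were seen, moved the other way, from 28.6 and 25.5 to 4.93 and 5.46 (log2 fold change -2.18, SE 0.48, limma's adjusted p = 0.00523, and 0.0539 without the first control library).

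*Fzd5* and *Fzd8*, close relatives known from eye and forebrain progenitors and as receptors for β-catenin signalling, both fell. *Fzd5* (ENSMUSG00000045005.10, chr1:64769717-64776934, minus strand, 2 exons) was at 68.0 and 75.5 in control and 29.6 and 26.2 in KO libraries. All KO values lay well under the lowest control. The means were 71.8 ± 5.33 and 27.9 ± 2.38 (SD, n = 2 each). The log2 fold change was -1.33 with a 95% interval of -1.89 to -0.78 (SE 0.26, limma's adjusted p = 0.00234), or 0.397 of the control level. A gene model on the opposite strand, *Gm38058*, overlaps its exons with a mean normalized count of 10.99. The kit was stranded but strand-specific counting is not stated, so that reads of both genes cannot be told apart.

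*Fzd8* (ENSMUSG00000036904.7, chr18:9212163-9218136, plus strand, 1 exon) was at 178 and 159 in control and 101 and 115 in KO libraries. The genotypes were separated by more than the distance within either one. The means were 169 ± 13.3 and 108 ± 9.98 (SD, n = 2 each), with a log2 fold change of -0.64 and a 95% interval of -0.98 to -0.31 (SE 0.16, limma's adjusted p = 0.0101). The call was lost without the first control library (adjusted p = 0.0969), without the variance trend (0.0955) and in DESeq2 (0.0755), and the sign held in each. Beside both receptors stand the progenitor markers, whose summed level fell to 0.640 of control, the pallial excitatory markers at 0.512 and the vascular, meningeal and microglial markers at 0.453. Their part in the lower *Fzd5* and *Fzd8* was not tested.

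*Fzd1*, *Fzd2* and *Fzd7* form the third subfamily, with broad roles in β-catenin signalling, and none of the 3 passed the test. *Fzd1* (ENSMUSG00000044674.7, chr5:4803839-4808035, minus strand, 1 exon) was at 165 and 150 in control and 136 and 131 in KO libraries (log2 fold change -0.23, 95% interval -0.55 to 0.08, limma's adjusted p = 0.318). *Fzd2* (ENSMUSG00000050288.7, chr11:102495222-102498884, plus strand, 1 exon) was at 145 and 142 against 109 and 123 (log2 fold change -0.30, 95% interval -0.63 to 0.03, adjusted p = 0.214 in limma). In each of the 3 genes both KO libraries lay below both controls, beside 57.4% of all genes without overlap in either direction. *Fzd7* (ENSMUSG00000041075.9, chr1:59521269-59534685, plus strand, 2 exons) was at 40.3 and 44.9 against 23.7 and 27.3 (log2 fold change -0.72, 95% interval -1.36 to -0.08). Its limma p of 0.0304 before adjustment came to 0.119 after it, on 138 reads in all.

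*Fzd9* belongs with *Fzd4* and *Fzd10* and is known from neural progenitors and the hippocampus. *Fzd9* (ENSMUSG00000049551.3, chr5:135277792-135280084, minus strand, 1 exon) was at 25.1 and 19.4 in control and 10.9 and 6.56 in KO libraries, on 64 reads in all. Both KO libraries lay below both controls. The log2 fold change of -1.28 had a 95% interval of -2.29 to -0.28 and did not pass the test (limma's adjusted p = 0.0746), although without the first KO library it did (log2 fold change -1.61, adjusted p = 0.0398). The relatives *Fzd4* (log2 fold change -0.10, adjusted p = 0.897) and *Fzd10* (-0.75, adjusted p = 0.415), named after their values were seen, were not called by limma either. The sign of *Fzd4* turned without the first KO library (0.075). *Fzd9* and *Fzd10* passed the filter only through their controls, with KO means of 8.70 and 8.97.

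**Figure D2:**
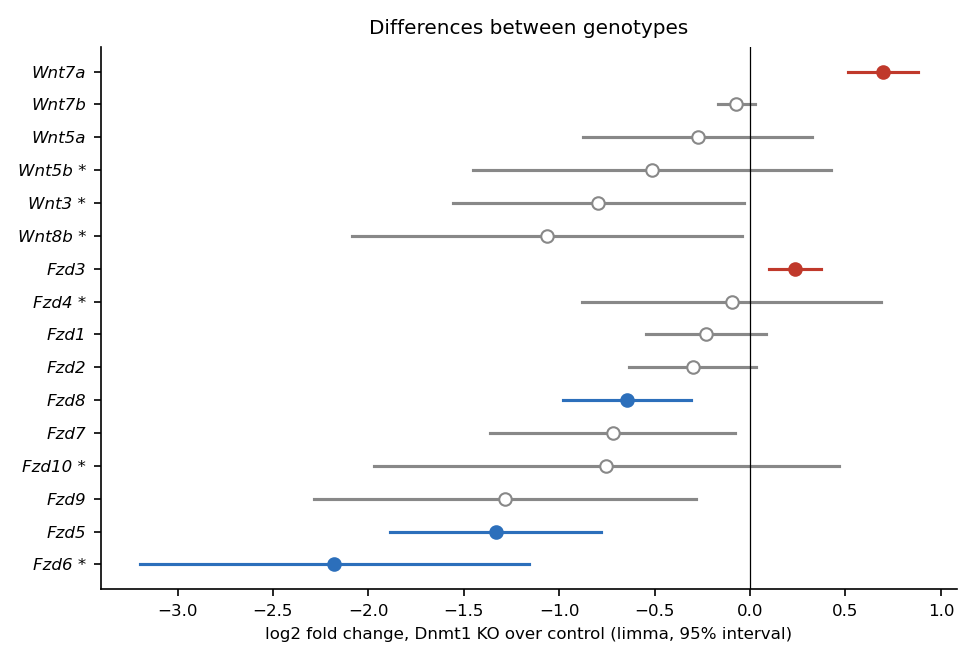
Log2 fold change of *Dnmt1* KO over control (horizontal axis) with limma's 95% interval for the Wnt and Frizzled genes tested, filled where the adjusted p was below 0.05, and with an asterisk for genes outside the 10. *Wnt7a* at 0.70 and *Fzd3* at 0.24 are filled above 0, and *Fzd8* at -0.64, *Fzd5* at -1.33 and *Fzd6* at -2.18 are filled below 0.

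Levels of different genes were set side by side per kilobase of exon. By this scale *Wnt7b*, *Wnt7a* and *Fzd3* led in both genotypes, followed by *Fzd2* and *Fzd1*, which overlapped in both and could not be ordered, and by *Fzd8*. The control means of these 6 ran from 1110 for *Wnt7b*, 134 for *Wnt7a* and 116 for *Fzd3* to 39.2 for *Fzd2*, 37.5 for *Fzd1* and 28.2 for *Fzd8*. The other 4 were ordered differently in the genotypes. Their control means were 10.3 for *Fzd5*, 9.69 for *Fzd9*, 8.98 for *Wnt5a* and 7.26 for *Fzd7*, and their KO means 7.74 for *Wnt5a*, 4.34 for *Fzd7*, 4.02 for *Fzd5* and 3.795 for *Fzd9*. Libraries of *Fzd5* and *Fzd9* overlapped in both genotypes, those of *Wnt5a* and *Fzd5* in controls and those of *Fzd9* and *Fzd7* in KO cells, so that this tail has no firm order. Per kilobase of the transcript with the longest coding sequence, the control mean of *Wnt7b* was 1629 and that of *Fzd7* 14.4 in place of 7.26, which moves *Fzd7* off the last place in controls.

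The 10 Frizzled genes together, per kilobase, summed to 274 and 247 in control and 234 and 240 in KO libraries, with both KO libraries below both controls (ratio 0.909). Without *Fzd3* the sums were 151 and 138 in control and 97.5 and 103 in KO libraries, a ratio of 0.695. The share of *Fzd3* was 44.5% ± 0.40 of the Frizzled total in control and 57.6% ± 0.94 in KO cells (SD, n = 2 each). The share of *Fzd8* was 10.8% ± 0.06 in control and 7.60% ± 0.55 in KO cells, and that of *Fzd5* was 3.99% ± 0.59 in control and under 2% in KO cells (SD, n = 2 each). *Fzd1* and *Fzd2* were at 14.4% and 15.0% in control and at 13.4% each in KO cells. These shares rest on the level of *Fzd3*, whose difference was near 0 once length and GC trends were removed, and carry no test.

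**Figure D3:**
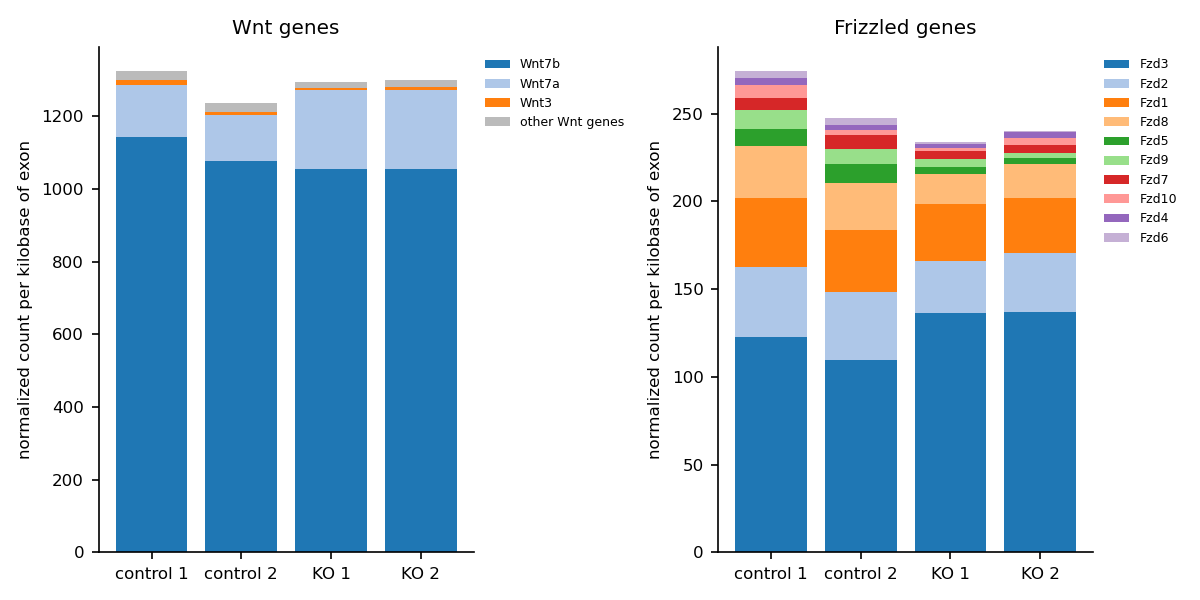
Normalized count per kilobase of exon (vertical axes from 0) of Wnt genes on the left and Frizzled genes on the right, stacked by gene for each of the 2 control and 2 *Dnmt1* KO libraries. *Wnt7b* fills most of each left column with a wider *Wnt7a* band in the KO libraries, and *Fzd3* fills 44.5% of the right columns in controls and 57.6% in KO libraries.

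The rest of the pathway was read from lists ordered by role, 119 genes in all outside the 10. Reads were seen for 115, and 88 could be tested, of which 15 were higher and 17 lower in KO, beside 8.30% higher and 8.99% lower of all genes, the shares against which each list's counts are to be read. Their median log2 fold change was -0.06 beside -0.0033 over all genes. Several genes stand in more than 1 list, since a β-catenin target can also be a component. Neither of the 2 genes that make ligands fit for release was called. *Wls*, the carrier that brings lipid-bearing Wnts to the cell surface, was at 110.1 and 96.0 in control and 109 and 99.4 in KO libraries (log2 fold change of 0.02 at limma's adjusted p = 0.954), and the other was the acyltransferase gene *Porcn* (log2 fold change -0.01).

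Of 10 co-receptors and alternative receptors tested, 1 was lower, which is near the 8.99% lower of all genes. *Gpc4*, a glypican that binds Wnts at the cell surface, was at 158 and 177 in control and 109 and 101 in KO libraries (log2 fold change -0.67, SE 0.16, limma's adjusted p = 0.00716). *Lrp6*, the co-receptor for β-catenin signalling, was at 879 and 899 in control and 989 and 1008 in KO libraries, with no overlap, and was not called (log2 fold change 0.17, adjusted p = 0.111). Of 5 R-spondins and genes of receptor turnover tested, *Rspo3*, which encodes a secreted amplifier of Wnt signalling, was lower, at 101 and 77.6 in control and 45.4 and 45.9 in KO libraries (log2 fold change -0.94, adjusted p = 0.00937 in limma). The call of *Gpc4* was lost without the second control library (adjusted p = 0.0818), and that of *Rspo3* without the first (adjusted p = 0.129).

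Extracellular Wnt inhibitors, not all of them secreted, and their receptors moved in both directions, with 1 higher and 3 lower among 7 tested and a median log2 fold change of -0.60. *Draxin*, an axon guidance factor that also binds LRP6, rose from 955 and 1067 to 1360.2 and 1361 (log2 fold change 0.43, limma's adjusted p = 0.000553). *Sfrp2*, whose product binds Wnts with a Frizzled-like domain, fell from 146 and 148 to 77.9 and 95.1 (log2 fold change -0.76). The Wnt antagonist gene *Apcdd1* fell from 309.6 and 294 to 199 in both KO libraries (log2 fold change -0.60), and *Dkk3* fell with a log2 fold change of -0.78. *Sfrp1*, the relative of *Sfrp2*, was at 518 and 457 in control and 420.2 and 435 in KO libraries and was not called (adjusted p = 0.200). The call of *Sfrp2* was lost without the second control library (adjusted p = 0.0533), and that of *Dkk3* without the first control (0.227), the second control (0.101) or the first KO library (0.137).

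Inside the cell, 6 of 21 genes of the Dishevelled and destruction complex list were higher and 1 was lower (all genes, 8.30% and 8.99%), with a median log2 fold change of 0.12. *Dact1*, which encodes a Dishevelled-binding scaffold, rose from 1252 and 1153 to 1635 and 1651 (log2 fold change 0.45, limma's adjusted p = 0.000168). *Amer1* (0.43), *Apc2* (0.32), *Apc* (0.28), *Tnks* (0.25) and *Tnks2* (0.20) also rose, the first 3 encoding parts of the scaffold on which β-catenin is degraded and the last pair tankyrases that act on axin. *Amer1* was not called without the first control (adjusted p = 0.0987) or the first KO library (0.120), nor *Tnks2* without the first control (0.0921), the second control (0.0569) or the first KO library (0.186). *Nkd1*, a Dishevelled inhibitor that is itself a target of the pathway, fell from 241 and 221 to 153 and 139 (log2 fold change -0.66). *Axin2*, the target most often used as a readout of β-catenin signalling, was at 255 and 283 in control and 229.8 and 264 in KO libraries, with overlap between the genotypes (log2 fold change -0.12, limma's adjusted p = 0.545).

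Of β-catenin and its 15 nuclear partners on the list, 4 were higher and 6 lower. *Ctnnb1*, the β-catenin gene, fell from 4408 and 4222 to 3457 and 3438 (log2 fold change -0.32, SE 0.05, limma's adjusted p = 0.000221). Of the DNA-binding TCF/LEF factors, *Tcf7l2* fell from 1006 and 957 to 439 and 460.0 (log2 fold change -1.12), and *Lef1* from 134 and 115 to 51.3 and 55.7 (-1.20). *Tcf7l1* fell too, with a log2 fold change of -1.19, and *Tcf7* was not called (-0.32). The co-repressor genes *Tle4* (-0.43) and *Tle1* (-0.38) fell, and their relatives *Tle2* (0.28) and *Tle3* (0.14) were not called. The co-activator genes *Pygo1* (0.57) and *Bcl9* (0.39) rose, and their paralogues *Pygo2* (0.014) and *Bcl9l* (0.11) were not called. The kinase gene *Nlk* (0.40) and *Ctnnd2*, a catenin of cell junctions (0.21), rose too. Calls were lost for *Tcf7l1* without the first control (adjusted p = 0.0653), the second control (0.271) or the second KO library (0.262), for *Tle1* without the second control (0.0737) and for *Ctnnd2* without the second control (0.0761), the first KO (0.0798) or the second KO library (0.0605).

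Among 9 transcriptional targets of β-catenin that could be tested, 5 were lower and none was higher, with a median log2 fold change of -0.60 beside -0.0033 over all genes. The 5 were *Tnfrsf19*, *Lef1*, *Ccnd1*, *Nkd1* and *Apcdd1*. *Ccnd1*, the cyclin that drives entry into S phase, fell from 331 and 355 to 172 and 156 (log2 fold change of -1.06 at limma's adjusted p = 2.02e-05), and *Tnfrsf19* from 123 and 129 to 78.9 and 30.6 (log2 fold change -1.34). *Tnfrsf19* was not called without the first (adjusted p = 0.0549) or the second control library (0.0671). The 4 targets not called, *Axin2*, *Myc*, *Znrf3* and *Tcf7*, had overlapping genotypes. Several of these targets are also expressed by progenitors, whose summed markers stood at 0.640 of control, and their part in the lower targets was not tested.

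The planar cell polarity list held 4 higher and 2 lower genes among 18 tested (all genes, 8.30% and 8.99%), so that its lower count is near the background, with a median log2 fold change of -0.0096. *Celsr3*, a cadherin that acts with *Fzd3* in axon guidance, rose from 1724 and 1643 to 2118 and 2263 (log2 fold change 0.38, limma's adjusted p = 0.000376), while its paralogue *Celsr1* fell from 654 and 544 to 252 and 314 (log2 fold change -1.08, adjusted p = 1.56e-05). *Rock1* (0.45) and *Rock2* (0.24), kinases of the actomyosin skeleton, and *Prickle2* (0.34), a core polarity gene, rose as well. The other gene that fell was *Fuz*, which serves in planar polarity and cilia (-1.02). Calls were lost for *Prickle2* without the first control (adjusted p = 0.0555), the second control (0.0572) or the first KO library (0.138), for *Rock2* without the same libraries (0.0901, 0.171 and 0.306) and for *Fuz* without the first control (0.261), the second control (0.0609) or the second KO library (0.140).

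**Figure D4:**
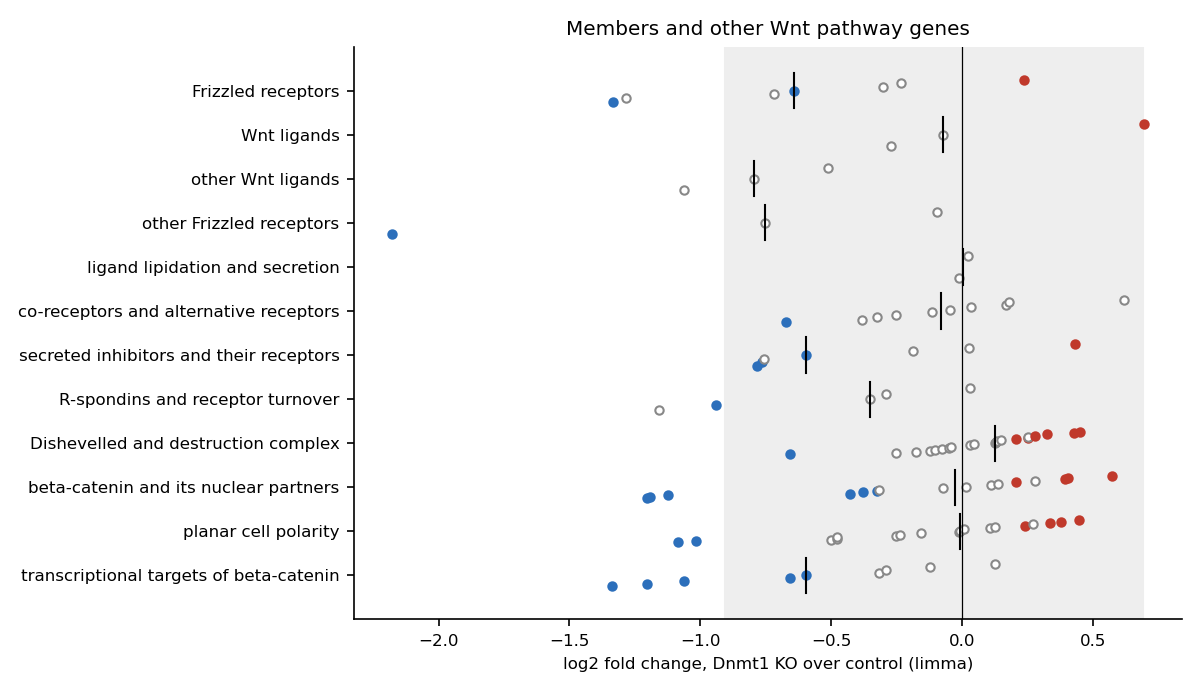
Log2 fold change of *Dnmt1* KO over control (horizontal axis) for each tested gene in the lists by role, filled in red where higher and in blue where lower at limma's adjusted p below 0.05, with a tick at each list's median and a grey band for the 5th to 95th percentile of all genes tested (-0.91 to 0.69). The β-catenin targets have 5 filled points below 0 and none above, and the Dishevelled and destruction complex list has 6 above and 1 below.

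For each of the 4 called genes, the pathway gene with the nearest pattern was found by Euclidean distance between centred log2 values over the 4 libraries, out of 88 candidates. The nearest was *Pygo1* for *Wnt7a* (distance 0.200), *Nkd2* for *Fzd3* (0.0853), *Rspo1* for *Fzd5* (0.234) and *Apcdd1* for *Fzd8* (0.155). Of these, *Nkd2* and *Rspo1* were not called themselves (limma's adjusted p = 0.383 and 0.114). The measure covers 4 libraries only and is a description.

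**Figure D5:**
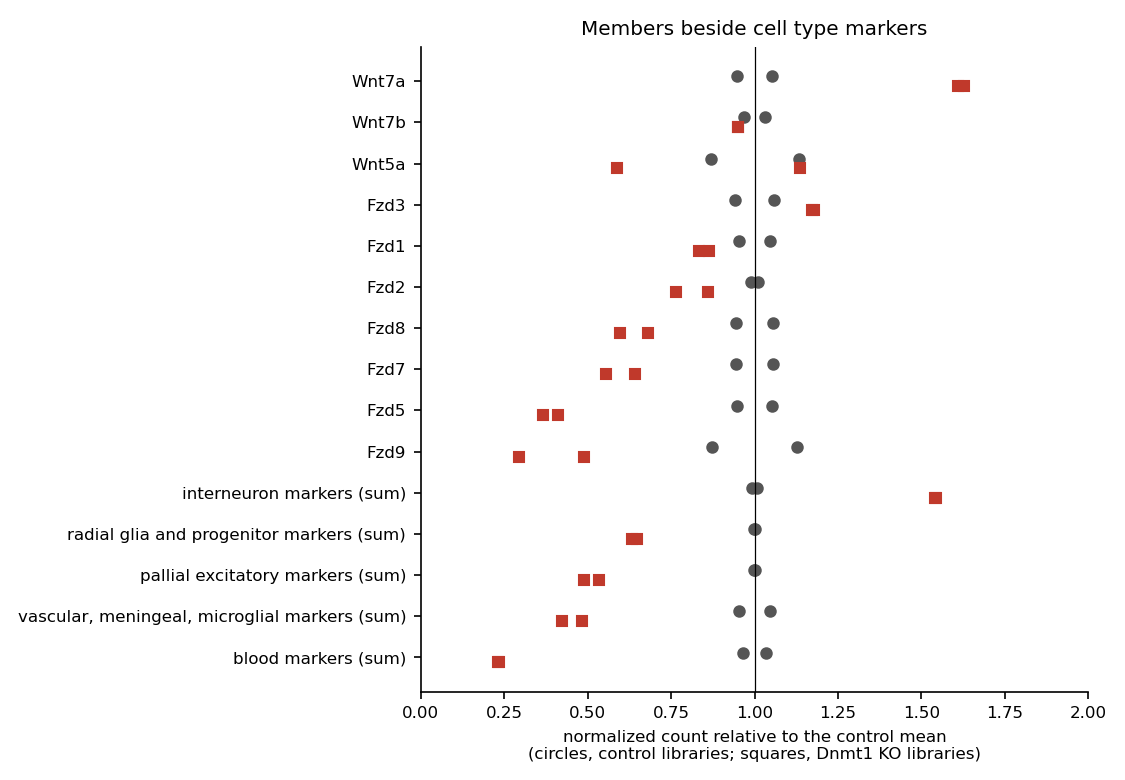
Normalized count relative to the control mean (horizontal axis, linear from 0) of the 10 genes and of the summed marker lists, with circles for control and squares for *Dnmt1* KO libraries. On average *Wnt7a* sits at 1.62 and the interneuron marker sum at 1.54 in KO libraries, and all KO squares of *Fzd5*, *Fzd7*, *Fzd8*, *Fzd9* and the progenitor, pallial, vascular and blood markers sit left of the control circles.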

How the data were processed

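RNA-seq of tdTomato-positive E14.5 basal telencephalon cells was analysed in 4 libraries, 2 for each genotype, grouped by the sample labels. The authors used Trim Galore for trimming, STAR for alignment to GRCm39, Salmon for gene-level quantification and DESeq2 in R 4.3.2 for normalization. The annotation release is not given in the sources used here. The deposited signal is a normalized count for each gene and library. Dividing it by the worth of 1 read in its library gave a whole number, within 0.0001, for each of the 89965 non-zero values (100%), so that reads could be recovered.

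The filter kept 14323 genes whose mean reached 10. They were tested with limma 3.58.1 in R 4.3.3 (eBayes with a variance trend, genotype alone in the design, two-sided) on log2 values after adding 1, which understates the changes of low genes. Benjamini-Hochberg adjustment ran over all of them, with calls below 0.05. Alternatives were other pseudocounts, filters and scalings, edgeR 4.0.16 and DESeq2 1.42.0 on recovered reads, removal of length and GC trends (spline with 5 degrees of freedom, 14285 genes matched to the annotation), a replicate block and each library left out. Coordinates and exon lengths are those of GENCODE on GRCm39. No stretch of 75 bases was shared between the transcripts of the 10 genes and those of other Wnt or Frizzled genes. Gene models on the opposite strand overlap exons of 8 of the 10 genes, and counting by strand is not stated. Tables were made in Python 3.11.15 with pandas 2.3.3 and figures with matplotlib 3.10.9.

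The genes named are the 10, *Dnmt1*, *Axin2*, *Ctnnb1*, *Lrp6*, *Wls*, *Lef1* and *Sfrp1*, up to 3 called genes in each direction and list at a mean normalized count of at least 50, the nearest pathway gene to each called member, markers, and those said to have been singled out. Further called genes of lists are named to complete a count. The members and lists were chosen with earlier results of these data known.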

Additional observations from a re-analysis of the deposited data

How the results depend on the processing

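Depth limits the rarer genes, since *Fzd9* had 64 reads and *Fzd7* 138 in all libraries together, and 2 libraries a genotype leave the variance to be borrowed from other genes. Of the 10 Wnt and Frizzled genes, 4 were called by limma (2 higher, 2 lower). Without the variance trend 0 were called in either direction, for these genes, for the pathway lists and for all genes (smallest adjusted p 0.0592, 3339 genes at an unadjusted p below 0.05). With DESeq2, which gave an adjusted p to 9 of the 10 and to 12656 of all genes, 2 of the 10 were called (1 higher, 1 lower), 21 pathway genes (10 lower) and 1327 of all genes (640 higher, 687 lower). Quantile normalization and the removal of length and GC trends each left 1 of the 10 higher, *Wnt7a*, and a mean of at least 50 left 1 lower, *Fzd8*, because *Fzd5* was no longer tested. The causes of the other changes were not tested. With a replicate block 4 of the 10 were called, and 2957 of all genes, and it changed no call of a gene named by rule. Control and KO replicates share only a number (r = -0.085 between their deviations over 14323 genes), so the pairing has no known basis.

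Leaving out each library in turn, with a lone library assumed to vary like the other genotype, gave 3 to 5 calls among the 10 (1 to 2 higher, 1 to 3 lower), 22 to 29 among the pathway genes (11 to 14 higher, 10 to 18 lower) and 1525 to 2205 of all genes (787 to 959 higher, 738 to 1246 lower). *Fzd3* was not called without the second control library, and *Fzd8* was not called without the first. Signs turned for *Wnt5a* without the first KO library (0.19, range -0.74 to 0.19 over the libraries left out), for *Fzd4* without the same library (0.075, range -0.27 to 0.075), for *Dnmt1* with length and GC trends removed (0.018), and for *Wls* with those trends removed (-0.054), without the second control library (-0.076) and without the first KO library (-0.047, range -0.076 to 0.12), none of them called. Per kilobase of the transcript with the longest coding sequence, the control mean of *Wnt7b* was 1629 and that of *Fzd7* 14.4. No scaling moved the median log2 fold change of all genes by more than 0.1.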
